A study of Mus musculus with 6 samples.

Results

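The genes described here are 5 developmental contractile isoforms, *Myh3*, *Myh8*, *Myl4*, *Tnnt2* and *Actc1*, followed across mouse tibialis anterior (TA) muscles electroporated with wild-type or dihydroxylation-resistant Lrpprc. They were taken by symbol from the deposited table of TPM values (transcript abundance per length, scaled to 1 fixed total in every library), where all 5 are among the 41709 genes listed, and all 5 passed the filter on low values (a mean TPM of at least 1 over all libraries) that left 11611 genes for testing. RNA-seq was done on 6 TA muscles of male C57BL/6J mice, 3 electroporated with a plasmid for Flag-tagged wild-type mouse Lrpprc (LrpprcWT) and 3 with the same plasmid carrying the P27A substitution (LrpprcP27A), in which alanine replaces proline 27 so that the residue cannot be hydroxylated. Lrpprc is an RNA-binding protein known chiefly for stabilizing mitochondrial mRNAs. Both groups therefore carry an electroporated Lrpprc plasmid driven by the CMV promoter, which is not restricted to muscle fibres, and both kept their endogenous Lrpprc. The muscles were collected 14 days after electroporation, the 2 muscles of a mouse received different plasmids, and the age of the mice used for RNA-seq is not given in the sources used here. Muscles without a plasmid, or with a control plasmid, were not analysed here, so that no level below can be set against that of an untreated muscle.

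The sarcomere is built from proteins that exist as families of closely related isoforms. Fibres of the fetus and newborn, and fibres that regenerate after injury, use embryonic and neonatal myosin heavy chains, an embryonic myosin light chain, cardiac troponin T and cardiac actin, and these are then replaced by adult fast and slow isoforms. The TA is a fast muscle, and its adult fibres use mainly the heavy chains encoded by *Myh4* and *Myh1*. *Myh3* and *Myh8* encode the embryonic and the neonatal (perinatal) myosin heavy chain, the motor of the thick filament. *Myl4* encodes the essential light chain of embryonic muscle and of the cardiac atria, which supports the lever arm of the myosin head. *Tnnt2* encodes cardiac troponin T, which anchors the troponin complex to tropomyosin on the thin filament. *Actc1* encodes cardiac alpha-actin, the thin filament actin of the heart and of immature skeletal muscle.

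In the annotation of GRCm39, *Myh3* lies at chr11:66969126-66993117 and *Myh8* at chr11:67167746-67199462, both on the plus strand and within 1 cluster of skeletal myosin heavy chain genes whose order is *Myh3*, *Myh2*, *Myh1*, *Myh4*, *Myh8* and *Myh13*. *Myl4* lies on the same chromosome outside the cluster (chr11:104440903-104486603, plus strand), *Tnnt2* at chr1:135763738-135780315 on the plus strand and *Actc1* at chr2:113876266-113884043 on the minus strand. The canonical transcripts have 41 exons for *Myh3*, 40 for *Myh8*, 7 for *Myl4*, 13 for *Tnnt2* and 7 for *Actc1*. Because all 5 genes were lower with LrpprcP27A, the 250 bases upstream of their RefSeq start sites were searched on both strands for the letters of motifs known from muscle promoters, which are the E-box CANNTG bound by MyoD and myogenin, the MCAT element CATTCC, the TATA box TATAAA, the CArG box of serum response factor and the MEF2 site. The RefSeq start used for *Myl4* lies 26575 bases upstream of the start of its GENCODE canonical transcript, and those of *Tnnt2* and *Actc1* lie 334 and 687 bases downstream of theirs. A second RefSeq start of *Tnnt2* lies 989 bases downstream of the canonical start. For *Myh3* and *Myh8* the starts coincide. The upstream sequence of *Myh3* (chr11:66968876-66969125, plus strand, GRCm39, directly before the first base of the gene) is shown as the promoter of the embryonic heavy chain, with capitals for its only E-box, 191 bases upstream, and its TATA box, 29 bases upstream.
Myh3: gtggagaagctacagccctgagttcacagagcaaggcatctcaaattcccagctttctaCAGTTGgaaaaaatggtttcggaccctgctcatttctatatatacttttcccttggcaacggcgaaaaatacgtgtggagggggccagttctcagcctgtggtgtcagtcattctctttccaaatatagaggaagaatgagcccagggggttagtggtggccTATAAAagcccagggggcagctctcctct

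Motif matches were not shared by all 5 genes. An E-box was found upstream of *Myh3*, *Myh8* and *Tnnt2*, and 66.2% of 32536 RefSeq promoters searched in the same way hold at least 1 E-box. A CArG box was found upstream of *Actc1* (1.48% of all promoters), a MEF2 site upstream of *Myh8* (2.89%) and an MCAT element upstream of the first RefSeq start of *Tnnt2* (12.6%). The window of the second *Tnnt2* start holds 1 E-box and no MCAT element, against 4 E-boxes in that of the first. TATAAA was present upstream of *Myh3* and, overlapping the MEF2 site, of *Myh8* (12.3%). None of these letters was found upstream of *Myl4*, which says only that they are not in this window. The sites of the CArG box, MEF2 and MCAT matches are shown because these motifs are less frequent than the E-box, those of *Actc1* and *Myh8* beside the like site of an adult counterpart, and the capitals mark the motif. The upstream sequence of *Myh4* also holds 2 E-boxes, 3 TATAAA matches, 1 MCAT element and 1 CArG box, which are not shown. That of *Acta1* also holds 2 E-boxes, 1 MCAT element and 1 TATAAA match, and that of *Myl1*, an adult counterpart of *Myl4*, 1 of each. The less frequent motifs were thus found upstream of adult counterparts as well. The sites lie at chr2:113883384-113883413 (*Actc1*, minus strand), chr8:124621568-124621597 (*Acta1*, the adult skeletal actin, minus strand), chr11:67167841-67167870 (*Myh8*, plus strand), chr11:67128446-67128475 (*Myh4*, the adult fast IIb heavy chain, plus strand) and chr1:135764033-135764062 (*Tnnt2*, plus strand) of GRCm39.
Actc1 CArG box: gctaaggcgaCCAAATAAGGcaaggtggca
Acta1 CArG box: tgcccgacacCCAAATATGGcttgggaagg
Myh8 MEF2 site: ccttgtcaaaTTATTTATAGgagattggtt
Myh4 MEF2 site: ccctgtcaaaTTATTTATAGatgacaagaa
Tnnt2 MCAT element: tctcctgctgcaCATTCCtccctccgcggg
The RefSeq starts of *Acta1* and *Myh4* lie 172 bases downstream and 2785 bases upstream of their GENCODE canonical starts, and that of *Myl1* lies 187 bases downstream. The CArG boxes of *Actc1* and *Acta1* differed by A8T, counted from 1 at the 5′ end of the box. The MEF2 sites of *Myh8* and *Myh4* had no difference and lay in an identical run of 17 bases. These matches describe sequence, and binding was not measured.

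All 5 developmental isoforms were lower with LrpprcP27A than with LrpprcWT, and in every case the lowest LrpprcWT library was above the highest LrpprcP27A library. Between group means of all libraries the fall was largest for the embryonic and neonatal isoforms *Myh8* (10.1-fold), *Myh3* (8.62-fold) and *Myl4* (6.81-fold), followed by *Tnnt2* (5.46-fold) and *Actc1* (3.21-fold). The folds depend on single libraries. Without LrpprcP27A replicate 1 they were 19.9 for *Myh3*, 17.1 for *Myh8*, 13.8 for *Myl4*, 8.03 for *Tnnt2* and 4.48 for *Actc1*, with *Myh3* then above *Myh8*. The lowest folds were 6.02 for *Myh3* and 7.57 for *Myh8*, without LrpprcWT replicate 1, and 5.38 for *Myl4*, without LrpprcP27A replicate 2. For *Tnnt2* (4.45) and *Actc1* (2.68) they came without LrpprcP27A replicate 3. At an adjusted p under 0.05 (limma on log2(TPM + 1), Benjamini-Hochberg over the 11611 genes tested), 5 of 5 were called lower, while 23.3% of all genes tested were called lower and 1.34% higher. Groups that did not overlap, with LrpprcP27A lower, were found for 5 of 5 members and for 47.6% of all genes tested. The median log2 fold change of the 5 genes was -2.62, and that of all genes tested was -0.32, so that on the deposited scale most genes lay below 0. With libraries rescaled by median of ratios the median of all genes was 0.04, the numbers of genes called lower and higher changed from 2705 and 156 to 675 and 793, and 5 of 5 members were still called lower beside 5.81% of all genes. In the list of all genes tested, ordered by log2 fold change, 7 genes stood below *Myh8*, 11 below *Myl4*, 14 below *Myh3*, 68 below *Actc1* and 114 below *Tnnt2*. The libraries are of whole muscle, in which fewer cells of a type and less RNA per cell cannot be told apart.

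**Figure D1:**
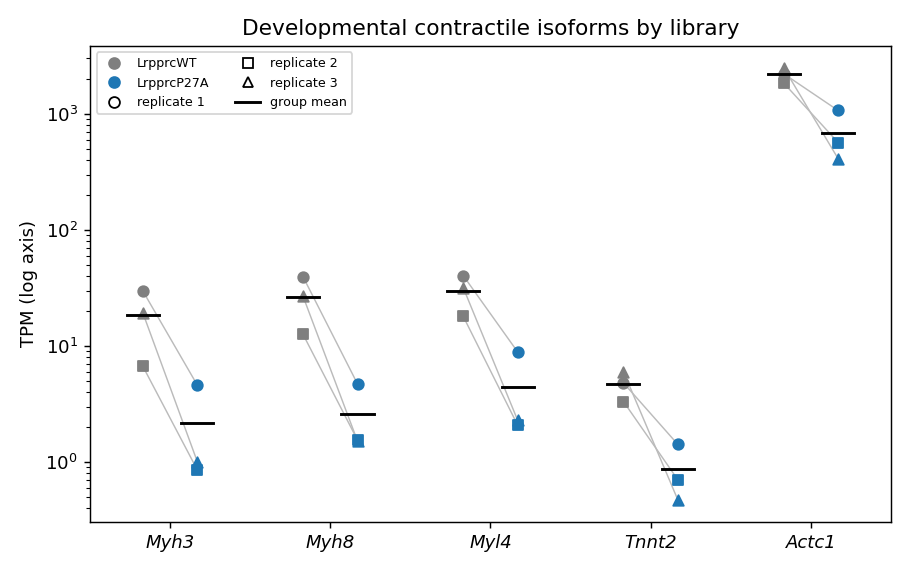
TPM of the 5 developmental isoforms (log axis) in each library, with LrpprcWT in grey, LrpprcP27A in blue, a marker shape for each replicate number, black bars for group means (n = 3) and thin lines joining libraries of the same number. Each gene is lower in all 3 LrpprcP27A libraries than in any LrpprcWT library, with LrpprcWT replicate 2 the lowest of its group and LrpprcP27A replicate 1 the highest of its group for 5 of 5 genes.

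*Myh3*, the embryonic heavy chain, measured 29.8, 6.69 and 19.3 TPM in LrpprcWT replicates 1, 2 and 3 and 4.61, 0.858 and 1.01 TPM in the LrpprcP27A replicates. The LrpprcWT libraries were spread widely, and replicate 2 was only 1.45-fold above LrpprcP27A replicate 1, the narrowest gap among the 5 genes. The group means were 18.6 ± 11.6 TPM for LrpprcWT and 2.16 ± 2.12 TPM for LrpprcP27A (SD, n = 3), a log2 fold change of -2.62 (SE 0.54, 95% CI -3.85 to -1.38, limma adjusted p = 0.0205). Without LrpprcWT replicate 1 its adjusted p was 0.0599 and without LrpprcP27A replicate 3 it was 0.0518 (limma).

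*Myh8*, the neonatal heavy chain, measured 39.5, 12.6 and 26.8 TPM with LrpprcWT and 4.72, 1.55 and 1.52 TPM with LrpprcP27A. The order of the LrpprcWT libraries was that of *Myh3*, and the gap between the groups was wider, with LrpprcWT replicate 2 standing 2.66-fold above LrpprcP27A replicate 1. Means were 26.3 ± 13.5 TPM and 2.6 ± 1.84 TPM (SD, n = 3), and the log2 fold change was -2.90 (SE 0.43, 95% CI -3.87 to -1.93, limma adjusted p = 0.0116).

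*Myl4*, the embryonic and atrial light chain, measured 40.4, 18 and 31.8 TPM with LrpprcWT and 8.89, 2.08 and 2.29 TPM with LrpprcP27A. LrpprcP27A replicate 1 was again above the other LrpprcP27A libraries but lower than any LrpprcWT library. The means of 30.1 ± 11.3 and 4.42 ± 3.87 TPM (SD, n = 3) gave a log2 fold change of -2.67 (SE 0.45, 95% CI -3.68 to -1.66, limma adjusted p = 0.0144).

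*Tnnt2*, cardiac troponin T, was the lowest of the 5 genes, with 4.82, 3.33 and 6.02 TPM in the LrpprcWT libraries and 1.42, 0.704 and 0.472 TPM in the LrpprcP27A libraries. Here LrpprcWT replicate 3 was the highest and the LrpprcWT libraries lay closer together (4.72 ± 1.35 TPM, against 0.865 ± 0.493 TPM for LrpprcP27A, SD, n = 3). The LrpprcP27A mean is below the filter of 1 TPM, so *Tnnt2* passed it only through its LrpprcWT libraries. The log2 fold change was -1.62 (SE 0.23, 95% CI -2.16 to -1.09, limma adjusted p = 0.0116), and the added pseudocount of 1 makes it smaller than the ratio of the means.

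*Actc1*, cardiac alpha-actin, was the most abundant of the 5 genes per length, with 2215, 1843 and 2502 TPM with LrpprcWT and 1068, 566 and 411 TPM with LrpprcP27A. Even in the LrpprcP27A libraries it stood above the other 4 genes in any library. Means were 2187 ± 330 and 682 ± 343 TPM (SD, n = 3), and the log2 fold change was -1.79 (SE 0.30, 95% CI -2.46 to -1.11, limma adjusted p = 0.0144).

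Levels within the LrpprcWT group ordered the genes as *Actc1* far above *Myl4*, *Myh8* and *Myh3*, whose ranges over the 3 libraries overlapped, and *Tnnt2* last, below the lowest *Myh3* library. In the LrpprcP27A group the ranges of *Myl4*, *Myh8* and *Myh3* overlapped as well, and that of *Tnnt2* overlapped with that of *Myh3*. The libraries also ordered in a similar way for each gene, although replicates have no order of their own. LrpprcWT replicate 2 was the lowest LrpprcWT library for 5 of 5 members and LrpprcP27A replicate 1 the highest LrpprcP27A library for 5 of 5, while the highest LrpprcWT library was replicate 1 for 3 genes (*Myh3*, *Myh8* and *Myl4*) and replicate 3 for 2 (*Tnnt2* and *Actc1*). On the first principal component of all genes tested, which held 78.1% of the variance, LrpprcWT replicate 2 scored -0.801, between LrpprcWT replicates 1 and 3 (-42.4 and -41.6) and the LrpprcP27A libraries (18, 38.9 and 27.9). Without LrpprcWT replicate 2 all 5 members were called lower (limma adjusted p 0.00325 to 0.00668), and without LrpprcWT replicate 3 no member passed the threshold (limma adjusted p 0.0832 to 0.108), although the log2 fold changes stayed between -1.46 and -3.33 over all libraries left out in turn. As differences of log2(TPM + 1) between libraries of the same number, LrpprcP27A minus LrpprcWT, *Myh3* gave -2.46, -2.05 and -3.34, *Myh8* gave -2.82, -2.41 and -3.46, and *Myl4* gave -2.07, -2.63 and -3.32. *Tnnt2* gave -1.27, -1.35 and -2.25, and *Actc1* gave -1.05, -1.70 and -2.60. The third pair had the largest difference for 5 of 5 genes.

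*Lrpprc* itself, whose TPM sums endogenous and plasmid transcripts, was 35.1, 37 and 75.2 with LrpprcWT and 26.9, 29.7 and 26 with LrpprcP27A. The groups did not overlap, with LrpprcP27A lower, as for 47.6% of all genes tested. LrpprcWT replicates 1 and 2 lay nearer to the LrpprcP27A libraries than to LrpprcWT replicate 3. The log2 fold change of -0.72 was not called (limma adjusted p = 0.0652, and 0.00243 when same-numbered libraries were blocked). By qRT-PCR the study found similar *Lrpprc* mRNA with both plasmids in young mice, and no significant difference in old mice. The LrpprcWT library with the most *Lrpprc* was the highest for *Tnnt2* and *Actc1* and not for the other 3 members. The part of the *Lrpprc* level in the results was not tested.

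The adult counterparts of the 5 genes were examined to ask whether whole isoform families moved. Of 9 adult heavy chain, light chain, troponin T and actin genes, 4 were called lower, 0 higher and 5 were not called. Of all genes tested, 23.3% were called lower and 1.34% higher. Groups that did not overlap, with LrpprcP27A lower, were found for 5 of 9, beside 47.6% of all genes. The median log2 fold change of the 9 was -0.38, close to that of all genes. It covers fast isoforms near 0 and isoforms of slow and oxidative fibres with larger differences. With same-numbered libraries as blocks, 6 of the 9 were called lower and 1 higher. With median-of-ratios scaling 1 was called lower, beside 5.81% of all genes, and 0 higher. Without LrpprcWT replicate 1 or 3, 1 was called lower, and without LrpprcP27A replicate 3, 2 were. The abundant fast isoforms lay close to 0 on the deposited scale, where *Myh4* was 0.36 (limma adjusted p = 0.0751, 0.0203 with the block), *Myh1* -0.38 (0.0804, 0.015 with the block), *Tnnt3*, fast troponin T, 0.08 (0.586) and *Acta1* -0.18 (0.197). *Myl1*, the fast essential light chain, was called lower by a small amount (-0.37, limma adjusted p = 0.041). With median-of-ratios scaling the signs of *Myh1* (0.04), *Myl1* (0.05) and *Acta1* (0.24) turned, and *Tnnt3* turned to -0.11 with quantile normalization, so no direction is given for these genes.

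Adult isoforms of slow and oxidative fibres had larger differences. *Tnnt1*, slow troponin T, was 29.7, 16.1 and 24 TPM with LrpprcWT and 4.56, 4.23 and 2.93 TPM with LrpprcP27A, a log2 fold change of -2.28 (limma adjusted p = 0.00451) that was larger in size than that of *Tnnt2*. *Myl3*, the slow and ventricular light chain, had a log2 fold change of -1.38 (limma adjusted p = 0.0191) and *Myh2*, the IIa heavy chain, had -1.16 (0.0236). With median-of-ratios scaling *Tnnt1* was still called lower (-1.91, limma adjusted p = 0.00894). *Myl3* (-0.98, limma adjusted p = 0.101) and *Myh2* (-0.74, 0.0823) were then not called. *Myh7*, the slow heavy chain, was listed at 14.9 TPM in LrpprcWT replicate 1 and between 0.177 and 0.823 TPM in the other 5 libraries, and its log2 fold change of -1.19 was not called (limma adjusted p = 0.243, 0.0107 with the block). Differences between a member and its counterpart were not tested as such on this scale.

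**Figure D2:**
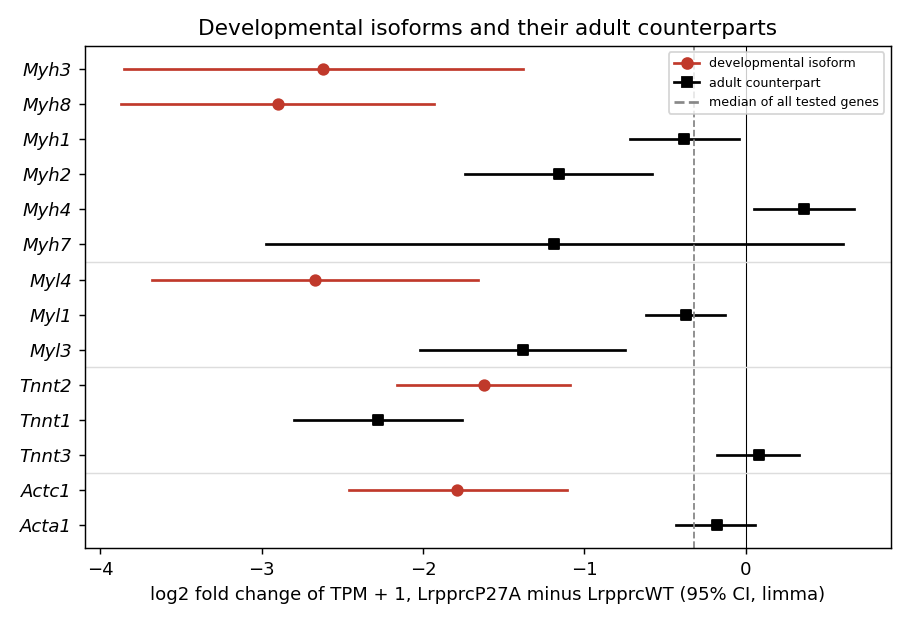
Log2 fold change of TPM + 1 (LrpprcP27A minus LrpprcWT, n = 3 each) with its 95% confidence interval from limma, for the developmental isoforms (red circles) and their adult counterparts (black squares), grouped by protein family. The intervals of the 5 developmental isoforms lie wholly below the dashed line at the median of all genes tested (-0.32), as do those of *Myh2*, *Myl3* and *Tnnt1*, and the intervals of *Myh7*, *Tnnt3* and *Acta1* include 0.

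Within the myosin heavy chain cluster of chromosome 11, the 2 developmental genes are not neighbours. *Myh3*, at the start of the cluster, had a log2 fold change of -2.62, the next genes *Myh2* and *Myh1* had -1.16 and -0.38, *Myh4* had 0.36, *Myh8* had -2.90 and *Myh13*, the heavy chain of extraocular muscle, had 0.29 (limma adjusted p = 0.566). The 2 large differences thus lay on either side of the adult fast genes, which were the most abundant heavy chains in every library (*Myh4* 11282 to 17667 TPM, *Myh1* 4475 to 7540 TPM).

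Heavy chain genes are close to each other in sequence, and how reads that match several genes were counted is not given in the sources used here. Of the 100-base windows of the canonical *Myh3* transcript, 1.15% occur without a mismatch in another gene (*Myh13*), and of those of *Myh8* 6.61% do (*Myh1*, *Myh2*, *Myh4* and *Myh13*). With up to 2 mismatches, 4.68% of the *Myh3* windows and 19.6% of the *Myh8* windows match another heavy chain of the adult or developmental set. No window of *Myl4*, *Tnnt2* or *Actc1* is shared in either way with another gene compared. At up to 2 mismatches, *Myh8* shares 10.8% of its windows with *Myh4*, 10.8% with *Myh1* and 11.1% with *Myh2*. *Myh3* shares 0.59%, 2.32% and 3.28% with these genes in the same order. *Myh4*, with at least 11282 TPM in each library, and *Myh1* were not called lower with LrpprcP27A, and *Myh2* was called lower. The part of shared reads in the heavy chain values was not tested.

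As a measure that does not depend on the scaling of a library, each developmental isoform was expressed as a share of the TPM of its family in the same library. The share of *Actc1* in the sum of *Actc1* and *Acta1* was 5.08, 4.63 and 5.32% with LrpprcWT and 2.95, 1.51 and 1.1% with LrpprcP27A. LrpprcWT libraries were close to each other in this measure, at 5.01% ± 0.352 against 1.86% ± 0.971 (SD, n = 3), a 2.7-fold difference. The neonatal *Myh8* made up 0.205, 0.0635 and 0.142% of the heavy chain TPM with LrpprcWT and 0.0244, 0.00697 and 0.00698% with LrpprcP27A, a 10.7-fold difference of the means. *Myh3* made up 0.0968% ± 0.0606 with LrpprcWT and 0.0108% ± 0.0113 with LrpprcP27A (SD, n = 3), a 9-fold difference. *Myl4* made up 0.235% ± 0.0799 of the essential light chain TPM and 0.0473% ± 0.0441 with LrpprcP27A, and *Tnnt2* 0.0275% ± 0.00833 of the troponin T TPM and 0.00487% ± 0.00313 with LrpprcP27A (SD, n = 3). Without LrpprcP27A replicate 1 the difference of the means was 22.9-fold for *Myh3*, 19.6-fold for *Myh8*, 10.8-fold for *Myl4*, 8.91-fold for *Tnnt2* and 3.83-fold for *Actc1*. It was smallest without LrpprcWT replicate 1 for *Myh3* (6.31-fold) and *Myh8* (8.02-fold), and without LrpprcP27A replicate 2 for *Myl4* (3.86-fold). For *Tnnt2* (4.56-fold) and *Actc1* (2.24-fold) it was smallest without LrpprcP27A replicate 3. The groups did not overlap for any of the 5 shares, and the exact two-sided permutation test gave p = 0.1 for each, the smallest p that 3 against 3 libraries allow. Over the 3 same-numbered pairs the exact sign-flip test gave p = 0.25, the smallest it allows. The adult isoforms made up nearly all of each family in both groups. *Myh4* took 65% ± 7.12 of the heavy chain TPM with LrpprcWT and 76.1% ± 3.83 with LrpprcP27A, and *Myh1* 33.1% ± 6.65 and 23.1% ± 3.75 (SD, n = 3, exact permutation p = 0.2 for both).

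**Figure D3:**
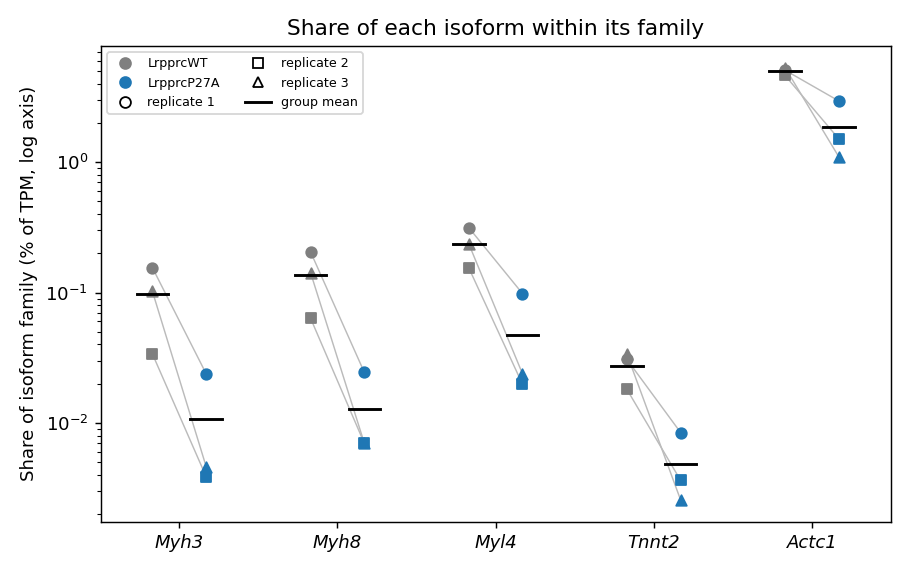
Share of each developmental isoform in the TPM of its family (percent, log axis) in each library, with LrpprcWT in grey, LrpprcP27A in blue, marker shapes for replicate numbers, black bars for group means (n = 3) and thin lines joining libraries of the same number. The families are the heavy chains *Myh1*, *Myh2*, *Myh3*, *Myh4*, *Myh7* and *Myh8*, the essential light chains *Myl1*, *Myl3* and *Myl4*, the troponins T and the pair of actins, and the shares range from 0.00256% for *Tnnt2* to 5.32% for *Actc1*.

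Because several of the 5 genes are also genes of the heart, other cardiac genes were listed. Of 13, 6 passed the filter on low values, with a median log2 fold change of -1.67. Of these 6, 3 were called lower and 0 higher, beside 23.3% and 1.34% of all genes tested. The 3 were *Ankrd1*, a stress-responsive titin-binding protein (log2 fold change -2.08, limma adjusted p = 0.0125), *Tnnc1*, slow and cardiac troponin C (-2.03, 0.0166), and *Casq2*, cardiac calsequestrin (-1.85, 0.00502), and adult slow fibres use *Tnnc1* and *Casq2* as well. The atrial light chain *Myl7* and the natriuretic peptide gene *Nppb* were listed at 0 in every library. The other 7 of the 13 could not be tested. With the block, 5 of the 6 were called lower, and without LrpprcWT replicate 3, 0 were (limma).

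The developmental isoforms are classical markers of regenerating fibres, and 17 other genes known from regenerating or denervated fibres and from activated satellite cells were counted beside them. Of all genes tested, 23.3% were called lower on the deposited scale and 5.81% with median-of-ratios scaling. Of the 16 listed genes that could be tested, 11 were called lower with median-of-ratios scaling and 1 without LrpprcWT replicate 3. On the deposited scale 14 were called lower and 0 higher, with a median log2 fold change of -1.52. Examples were *Mymk*, the fusogen Myomaker (log2 fold change -2.68, limma adjusted p = 0.0125), *Myog*, the differentiation factor myogenin (-2.35, 0.0116), *Igf2*, an insulin-like growth factor (-2.21, 0.016), *Chrna1*, the alpha subunit of the muscle acetylcholine receptor (-2.14, 0.01), and *Dlk1*, a transmembrane protein related to Notch ligands (-2.44, 0.0116). *Myod1*, the myogenic factor of activated satellite cells (-0.66, limma adjusted p = 0.054), and *Cdh15*, the M-cadherin of satellite cells (-0.05, 0.749), were not called. *Myf5*, another myogenic factor of this list, was called lower (-0.87, limma adjusted p = 0.016). *Chrng* (0.158), *Mymx* (0.311), *Dlk1* (0.413) and *Myf5* (0.777) had LrpprcP27A means below 1 TPM. They passed the filter on low values only through their LrpprcWT libraries. At a mean TPM of at least 5, 9 of the listed genes were called lower. A separate list of myogenic regulators held other transcription factors known for control of contractile genes, without *Myog*, *Myod1* and *Myf5*. These other factors had smaller differences. Of 13 tested, 1 was called lower (*Nfix*, -0.32, limma adjusted p = 0.0498, a factor of the fetal programme), 0 were called higher and 12 were not called. The median of these factors was -0.27. With the block 6 were called lower, without LrpprcWT replicate 2, 7 were, without any other single library 0 were, and with median-of-ratios scaling 0 were called lower, 2 higher and *Nfix* was at 0.10.

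**Figure D4:**
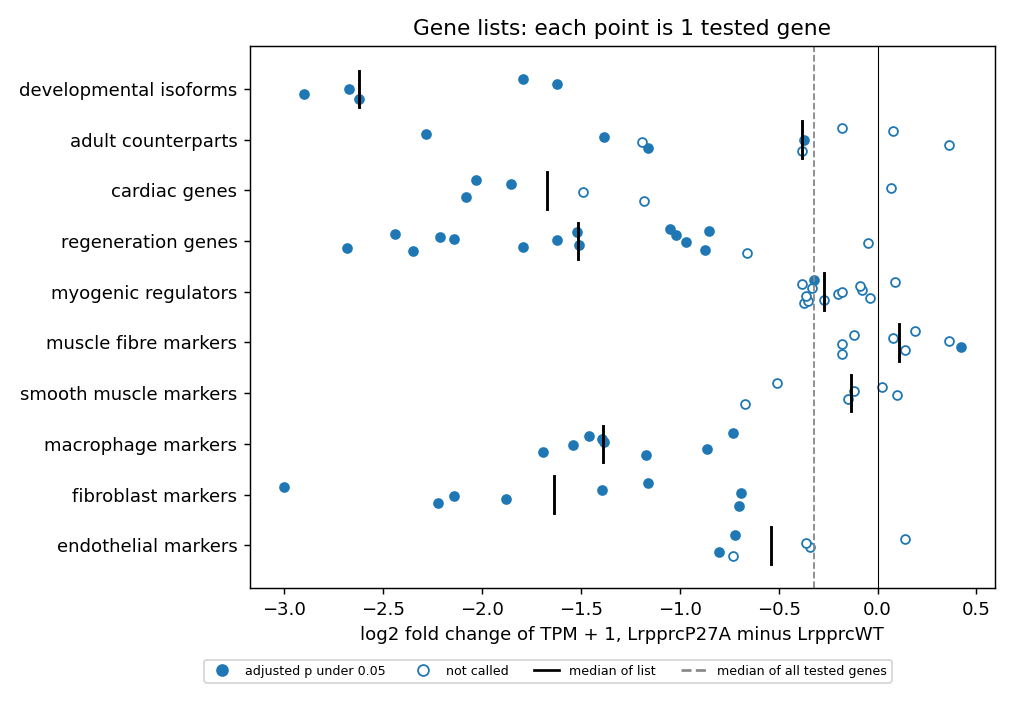
Log2 fold change of TPM + 1 (LrpprcP27A minus LrpprcWT) of each tested gene in the developmental isoforms and in the 9 other lists, with filled points for adjusted p under 0.05 (limma), black bars for list medians and a dashed line for the median of all genes tested (-0.32). The developmental isoforms have a median of -2.62, cardiac genes -1.67, fibroblast markers -1.64, regeneration genes -1.52, macrophage markers -1.39 and muscle fibre markers 0.11.

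Genes that followed the 5 isoforms most closely across libraries were sought by Pearson's r, over the 6 libraries, between log2(TPM + 1) and the mean standardized level of the 5 members, among 1539 genes with an SD of at least 0.5. The 5 nearest were *Mymk* (r = 0.998), *Hspa2*, a heat shock protein (0.998), *Tmsb10*, an actin-sequestering thymosin (0.997), *B4galnt1*, a ganglioside synthase (0.997), and *Pdgfrl*, a gene related to platelet-derived growth factor receptors (0.997). The mean standardized level of the members was 1.09, 0.39 and 1.00 in the LrpprcWT libraries and -0.25, -1.06 and -1.17 in the LrpprcP27A libraries. *Mymk* had the same order of libraries as *Myh8*, at 23, 8.73 and 22 TPM with LrpprcWT and 3.79, 1.18 and 0.942 TPM with LrpprcP27A. These values describe 6 libraries that share the difference between the groups.

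Markers of macrophages and fibroblasts were lower together with the isoforms. Among all genes tested, 23.3% were called lower, and 5.81% with median-of-ratios scaling. Of 8 macrophage markers 8 were called lower, with a summed level of 309 to 622 TPM in the LrpprcWT and 102 to 211 TPM in the LrpprcP27A libraries (3 of 8 with median-of-ratios scaling). Examples were *Cd68* (log2 fold change -1.69, limma adjusted p = 0.016) and *Lyz2* (-1.54, 0.0144). Of 8 fibroblast markers 8 were called lower, with sums of 987 to 1672 and 253 to 568 TPM (6 of 8 with median-of-ratios scaling), among them *Postn*, periostin of the matrix (-3.00, limma adjusted p = 0.0126), and *Col1a1*, a chain of type I collagen (-2.22, 0.0124). In both sums LrpprcWT replicate 2 was the lowest LrpprcWT library and LrpprcP27A replicate 1 the highest LrpprcP27A library, as for the 5 isoforms. Without LrpprcWT replicate 3, 0 markers of either list were called (limma), and without LrpprcWT replicate 1, LrpprcP27A replicate 2 or LrpprcP27A replicate 3, 3 macrophage and 5 fibroblast markers were called lower. Of 6 endothelial markers 2 were called lower (*Cdh5* -0.80 and *Emcn* -0.72), with sums of 148 to 266 and 109 to 150 TPM, and with median-of-ratios scaling 0 were called lower and 1 higher (*Vwf*, limma adjusted p = 0.0483). Of 6 smooth muscle markers, which matter here because smooth muscle has actins of its own, 0 were called (2 lower with the block), with sums of 166 to 233 and 119 to 186 TPM. The lowest p among them were those of *Smtn*, smoothelin (-0.51, limma adjusted p = 0.0552), and *Acta2*, smooth muscle alpha-actin (-0.67, 0.0594). No defining marker of these cell types was at 0 in all libraries. Of 8 markers of adult muscle fibres 0 were called lower and 1 higher (*Actn3*, fast alpha-actinin, 0.42, limma adjusted p = 0.0426), with sums of 97419 to 110848 and 96839 to 111256 TPM, so that the fibre transcripts of the labelled tissue were present in every library. Transcripts of the mitochondrial genome took 36 to 45.2% of the TPM with LrpprcWT and 44.2 to 46.1% with LrpprcP27A. The part of other cell types and of the mitochondrial share in the differences of the isoforms was not tested.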

How the data were processed

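Total RNA of 6 TA muscles was extracted with TRIzol, and libraries were prepared with an unstranded TruSeq kit and sequenced as paired 100-bp reads. After trimming, the authors used CLC Genomics Workbench for alignment to GRCm39, and they deposited TPM values, which sum to the same total in every library and keep no depth, so counting error is unknown. From the deposited TPM, log2(TPM + 1) was tested with limma 3.58.1 in R 4.3.3 (trend, Benjamini-Hochberg adjustment) where the mean TPM was at least 1, without a block. Fold changes on this scale understate changes of low genes. P-values measure the spread between these libraries. In a simulation of this comparison with 11611 genes, 193 of 200 genes changed by 2 on the log2 scale were recovered, with 3 false calls. Its noise was drawn independently for each gene and library, and only genes with a mean log2(TPM + 1) above 2 were changed. Differences between libraries that many genes share were not simulated, so it gives no error rate for the calls in these data. The study's methods test log TPM with Kruskal-Wallis and Dunn tests, and the Kruskal-Wallis test was an alternative.

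Replicate numbers are taken as pairs because the muscles of a mouse received different plasmids and the library titles carry the same numbers in both groups. These numbers are given here as replicates 1, 2 and 3. Libraries of the same number also deviated together from their group means (Pearson's r over genes 0.363, 0.528 and 0.356 for replicates 1, 2 and 3). Libraries of different numbers gave r of -0.362 to 0.00402. The sources do not state outright that the number is the mouse.

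The 5 genes and the lists were chosen with earlier results of these data known. Genes named were all members and adult counterparts, up to 5 called genes per list with the largest log2 fold change (some left out for length), and the 5 genes nearest to the members. *Myod1*, *Myf5*, *Cdh15*, *Myl7*, *Nppb*, *Vwf*, *Myh13*, *Chrng* and *Mymx* were named after their values were seen. Promoter sequences came from the RefSeq table of GRCm38.p6 and were placed on GRCm39 by exact match. Gene positions came from GENCODE. The alternatives tried were a pseudocount of 0.1, a lower or higher filter, other models, other scalings, the block, and each library left out.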

Additional observations from a re-analysis of the deposited data

How the results depend on the processing

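The log2 fold changes of all 5 members stayed below 0 under every alternative run. Their 5 calls were lost in 3 settings besides the Kruskal-Wallis test. In each of the 3 settings, 5 of 5 members were lower at an unadjusted p under 0.05. So were 5996 of 41709 genes without a filter, 3839 of 11611 without moderation and 3205 of 11611 without LrpprcWT replicate 3. Without a filter on low values the limma adjusted p was 0.242 for *Myh3* (log2 fold change -2.62), 0.22 for *Myh8* (-2.90), 0.226 for *Myl4* (-2.67), 0.218 for *Tnnt2* (-1.62) and 0.226 for *Actc1* (-1.79). A linear model per gene without limma's moderation gave adjusted p of 0.128 to 0.129 with the same fold changes. Without LrpprcWT replicate 3 the limma adjusted p was 0.0832 to 0.108. When libraries were left out singly, the log2 fold change ranged from -3.18 to -2.18 for *Myh3*, -3.33 to -2.55 for *Myh8*, -3.22 to -2.37 for *Myl4*, -1.83 to -1.46 for *Tnnt2* and -2.17 to -1.48 for *Actc1*. *Tnnt2* has no value at a mean TPM of at least 5. The cause of these losses was not tested. The Kruskal-Wallis test cannot give a p below 0.0495 with 3 against 3 libraries, so that no gene could pass after adjustment (0.0969 for each member), and its counts of 0 below say nothing about stability.

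The replicate block gave limma adjusted p of 8.16e-07 or less for the 5 members, and 0.00269 to 0.0176 with median-of-ratios scaling added. With 3 pairs per gene these values rest in part on the variance that limma pools over genes. The block changed no call among the members. Over all genes the calls lower and higher were 24 and 7 without a filter, 1560 lower at a mean TPM of at least 5, 1 and 0 without moderation (3839 and 284 at an unadjusted p under 0.05), 0 and 0 with the Kruskal-Wallis test (5530 and 407 at an unadjusted p under 0.05), 5619 and 312 with the block, 675 and 793 with median-of-ratios scaling, 521 and 493 after quantile normalization, and 1636 and 1995 with the block and median-of-ratios scaling. Leaving out libraries gave 15 to 6913 lower and 3 to 304 higher. In the 3 settings without a filter, without moderation and with the Kruskal-Wallis test, 0 members, adult counterparts, cardiac genes, regeneration genes and myogenic regulators were called. Adult counterparts called lower were 1 with median-of-ratios scaling, 2 after quantile normalization and 2 with the block and median-of-ratios scaling, and called higher 1 with the block and 2 with both. Cardiac genes called lower were 5 with the block. Regeneration genes called lower were 9 at a mean TPM of at least 5, and 1 was called higher with the block and median-of-ratios scaling. Myogenic regulators called lower were 6 with the block and 0 at a mean TPM of at least 5, without the trend, rescaled outside the mitochondrial genome, and with median-of-ratios or quantile scaling. Those called higher were 2, 1 and 3 with median-of-ratios scaling alone, with quantiles matched, and with the block added to median-of-ratios scaling. Leaving out libraries gave 0 to 5 members, 1 to 5 adult counterparts, 0 to 4 cardiac genes, 1 to 14 regeneration genes and 0 to 7 myogenic regulators called lower, and 0 to 1 adult counterparts called higher. *Myh1* (0.04), *Myl1* (0.05), *Acta1* (0.24) and *Nfix* (0.10) turned sign with median-of-ratios scaling in fits with or without the block, and *Tnnt3* (-0.11) after quantile normalization.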
